A study of Mus musculus with 12 samples.

Results

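The genes examined here encode the subunits of the neuronal A-type potassium channel built on Kv4: the pore-forming subunits Kcnd2 (Kv4.2) and Kcnd3 (Kv4.3), the cytoplasmic calcium-binding KChIP subunits Kcnip1, Kcnip2, Kcnip3 and Kcnip4, and the membrane-spanning subunits Dpp6 and Dpp10. These 8 genes were taken by symbol from the 55336 features of the count matrices, and all 8 were found. They had been put together because some of them were already known to differ between genotypes in these data, so the values of Kcnip1, Kcnip3, Kcnip4 and Kcnd3 in Het against WT animals are given below as a description, with no p and no call of their own. Their levels across classes of nuclei played no part in the choice.

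The nuclei came from the cortex of 12 mice at P21 of the MYT1L S710fsX line. Of these animals 6 were WT and 6 Het, and each genotype had 3 males and 3 females. MYT1L is a zinc finger transcription factor of neurons, and the Het animals carry 1 allele with a frameshift. The line is kept on a C57BL/6J background and was bred by crossing WT and Het animals. Every animal of both genotypes had received viral vectors for a transposon-based recording of transcription factor binding shortly after birth, according to the study's methods. Single nuclei were labelled by combinatorial barcoding, with all 12 animals processed together as 1 batch.

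Kv4 channels open below the spike threshold, inactivate within milliseconds and sit mainly on the soma and dendrites, where they limit the back-propagation of action potentials and set the interval between spikes. The channel is a tetramer of Kv4 subunits. KChIPs are members of the neuronal calcium sensor family that bind the Kv4 amino terminus, bring more channels to the surface and slow their inactivation, while DPP6 and DPP10, relatives of a dipeptidyl peptidase that have lost the enzyme activity, speed the channel's kinetics. KChIP3 is also known as DREAM or calsenilin, a calcium-regulated protein that can bind DNA and repress transcription.

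In the mouse annotation of build GRCm38, the members are spread over 7 chromosomes and differ widely in length. Kcnip4 lies at chr5:48389502-49524907 (minus strand, 1135 kb), Dpp6 at chr5:26817203-27727505 (plus strand, 910 kb) and Dpp10 at chr1:123321471-124045559 (minus strand, 724 kb). Kcnd2 spans chr6:21215503-21729805 (plus strand, 514 kb), Kcnip1 chr11:33629339-33993152 (minus strand, 364 kb) and Kcnd3 chr3:105452330-105674002 (plus strand, 222 kb). The short members are Kcnip3 at chr2:127456498-127522094 (minus strand, 65.6 kb) and Kcnip2 at chr19:45791839-45816061 (minus strand, 24.2 kb). Nuclear RNA holds unspliced transcripts, and levels are therefore compared below only within a gene and never between genes.

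MYT1L is known to bind the core sequence AAGTT, and RefSeq promoter windows of 300 bases (GRCm38.p6) were searched for these letters on both strands (AAGTT or AACTT). All 8 members had at least 1 window, 15 in all, and 4 of the 15 held the letters, in Kcnip3, Kcnip4, Kcnd2 and Dpp10. Of all 32851 windows, 12918 (39.3%) held them. The windows with a match are printed 5′ to 3′ on the strand of the gene, with the matched letters in capitals, because they are the places where the search found the core sequence. The match is a description of letters and no measurement of binding.
Kcnip3, chr2:127522045-127522344, minus strand: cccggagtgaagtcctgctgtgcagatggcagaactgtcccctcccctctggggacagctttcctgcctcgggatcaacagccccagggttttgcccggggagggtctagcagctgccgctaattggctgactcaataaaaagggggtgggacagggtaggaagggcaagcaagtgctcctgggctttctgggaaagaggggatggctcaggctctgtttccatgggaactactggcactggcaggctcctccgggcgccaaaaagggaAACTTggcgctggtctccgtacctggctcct
Kcnip4, chr5:48599633-48599932, minus strand: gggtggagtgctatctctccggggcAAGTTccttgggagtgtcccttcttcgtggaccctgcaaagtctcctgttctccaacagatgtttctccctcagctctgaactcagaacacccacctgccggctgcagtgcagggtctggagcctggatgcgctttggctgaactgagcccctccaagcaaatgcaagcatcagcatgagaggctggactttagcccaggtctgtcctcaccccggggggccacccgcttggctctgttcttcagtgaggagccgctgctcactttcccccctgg
Kcnd2, chr6:21215096-21215395, plus strand: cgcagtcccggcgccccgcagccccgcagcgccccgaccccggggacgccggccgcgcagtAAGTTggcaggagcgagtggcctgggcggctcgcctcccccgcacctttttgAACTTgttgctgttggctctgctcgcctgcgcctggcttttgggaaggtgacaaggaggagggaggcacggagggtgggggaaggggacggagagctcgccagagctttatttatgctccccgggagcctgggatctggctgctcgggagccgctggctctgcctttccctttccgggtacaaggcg
Dpp10, chr1:124045510-124045809, minus strand: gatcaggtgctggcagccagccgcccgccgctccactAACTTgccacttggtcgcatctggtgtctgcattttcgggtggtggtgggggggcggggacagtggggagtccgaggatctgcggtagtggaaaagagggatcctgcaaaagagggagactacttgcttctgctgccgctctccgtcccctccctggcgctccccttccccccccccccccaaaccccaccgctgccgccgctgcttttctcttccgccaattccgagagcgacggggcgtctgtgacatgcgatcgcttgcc
The Kcnd2 window holds the letters once on each strand, Kcnip4 on the sense strand, and Kcnip3 and Dpp10 on the antisense strand. In Kcnip3 and Kcnip4 other windows of the same gene held no match.

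Of 78743 barcodes in the matrices, 34861 (44.3%) lay within the limits on UMIs, genes and mitochondrial share. Most of the others, 33608 barcodes, held more than 6000 UMIs, so that the nuclei richest in transcripts are left out of the values below. Doublet removal then left 33117 nuclei (14346 WT and 18771 Het). The number of nuclei per animal ranged from 1551 to 3182 in WT and from 2009 to 4412 in Het, the median UMI count per nucleus from 3015.5 to 3285 and from 2980 to 3400, and no barcode occurred in more than 1 animal. Nuclei were put into classes by the UMIs of marker genes that include no member, giving 18927 excitatory, 7265 inhibitory and 3437 non-neuronal nuclei with 3488 left unclassed. The excitatory nuclei contributed 7 subclasses and the inhibitory nuclei 6, each named by its markers with the ending "-like". For 10 of the 13 subclasses every marker was at least 2-fold above its median in the other classes, and 1 marker was not in each of L5 NP-like, L6 CT-like and Sncg-like nuclei. The same markers assigned the nuclei, so this is no independent check of the names. Sncg-like nuclei, 224 in all, had 1 own marker and 1 Lamp5 marker among their 10 leading genes, and Vip-like nuclei had 2 of each. By the median UMIs of a marker list per nucleus, another list exceeded the own one in DG-like nuclei (2 own against 6 of the L6 CT list) and, with the striatal projection neuron list, in Pvalb-like (4 against 6) and Vip-like nuclei (5 against 6). Of the nuclei whose best subclass was Car3-like, 398 of 639 reached the posterior needed for the name. Striatal projection neuron-like nuclei (902) and DG-like nuclei (549), types that do not belong to the neocortex, are named apart below. They are part of the broad classes and of the means over other subclasses unless the text says that they were left out. Whether the other subclasses, such as Car3-like, also hold nuclei from outside the neocortex was not tested. All levels are in CPM, the counts of a gene scaled to a common total of UMIs, from the summed counts of a class in 1 animal.

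Between the sums over all excitatory and all inhibitory nuclei, 7 of 8 members were called in a paired comparison of the 12 animals. Single subclasses did not all follow this line. Mean Kcnip4 was 6506 CPM in Vip-like and 2326 CPM in L6 CT-like nuclei, and mean Dpp6 was 1404 CPM in Pvalb-like and 1394 CPM in DG-like nuclei. A call needed an adjusted p under 0.05 and an absolute log2 difference over 0.2. Of all 11764 genes tested 50.9% were called (24.5% higher and 26.4% lower in excitatory nuclei), so that the number of members called was read against a background in which such differences are the rule, and the size and direction for each member carry the description. Kcnip3, Kcnip4, Kcnd3 and Dpp10 were higher in excitatory nuclei, and Kcnip1, Kcnip2 and Dpp6 in inhibitory nuclei. Adjusted p-values here are from edgeR's quasi-likelihood test with Benjamini-Hochberg adjustment over all genes tested.

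Among the pore-forming subunits, Kcnd2, the main Kv4 subunit of pyramidal cell dendrites, differed little between the broad classes. Its level in excitatory nuclei was 2085 CPM at the lowest, 2427 at the median and 2589 at the highest of 12 animals, against 2151, 2604 and 3565 CPM in inhibitory nuclei. The ranges overlapped, and the log2 difference of -0.19 (SE 0.051, adjusted p = 0.00192) was below the size needed for a call. It passed, at -0.20 to -0.22, without any 1 of WT male 3, WT female 1, WT female 3, Het male 1 or Het female 1. Kcnd3, which many interneurons use, was modestly higher over all excitatory nuclei, at 248 to 330 CPM (median 304) against 185 to 304 CPM (median 242). The log2 difference was 0.33 (SE 0.045, adjusted p = 4.47e-07 by edgeR). The inhibitory sum includes Pvalb-like nuclei at 60.7 CPM and striatal projection neuron-like nuclei at 144 CPM. Sst-like, Lamp5-like, Vip-like and Sncg-like nuclei averaged 295, 327, 331 and 426 CPM. The excitatory subclasses ran from 198 CPM (L5 NP-like) to 424 CPM (DG-like).

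Of the KChIPs, Kcnip1 had the largest difference, with its higher level in inhibitory nuclei. It stood at 638, 714 and 837 CPM (lowest, median, highest) in inhibitory nuclei and at 49.7, 55.8 and 74.8 CPM in excitatory nuclei, with no overlap and a log2 difference of -3.61 (SE 0.050, adjusted p = 3.17e-28). Kcnip3 had the opposite pattern, at 132, 181 and 213 CPM in excitatory nuclei and 25.4, 40.5 and 53.3 CPM in inhibitory nuclei, again without overlap (log2 difference 2.21, SE 0.053, adjusted p = 3.95e-23). Kcnip4, the KChIP with splice forms that suppress fast inactivation, ranged from 6274 to 8817 CPM in excitatory nuclei (median 7240) and from 2428 to 4590 CPM in inhibitory nuclei (median 3816), a log2 difference of 1.02 (SE 0.093, adjusted p = 4.41e-07). Kcnip2 was the called member that lost its call without the 2 subclasses named apart above. Over all nuclei it was lower in excitatory nuclei (35.5 to 49.7 CPM, median 40.6) than in inhibitory nuclei (39.7 to 65.0 CPM, median 55.5), with a log2 difference of -0.37 (SE 0.060, adjusted p = 6.17e-06). Without the DG-like and striatal projection neuron-like nuclei the difference was 0.01 (SE 0.062, adjusted p = 0.934).

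The DPP subunits also went opposite ways. Dpp10 stood at 9393, 9965 and 11022 CPM in excitatory nuclei and at 1775, 2011 and 2385 CPM in inhibitory nuclei, with a log2 difference of 2.36 (SE 0.047, adjusted p = 6.08e-25). Dpp6 was higher in inhibitory nuclei, at 1608, 1798 and 2739 CPM against 650, 745 and 882 CPM (log2 difference -1.38, SE 0.070, adjusted p = 2.27e-11). Neither pair of ranges overlapped. Without the DG-like and striatal projection neuron-like nuclei 6 of 8 members were called, 53% of all genes were called in the same fit, Kcnd2 moved to 0.05 (SE 0.070, adjusted p = 0.589), Kcnip3 to 2.64 and Kcnip1 to -3.76, and Kcnip4, Kcnd3, Dpp6 and Dpp10 kept their direction.

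**Figure D1:**
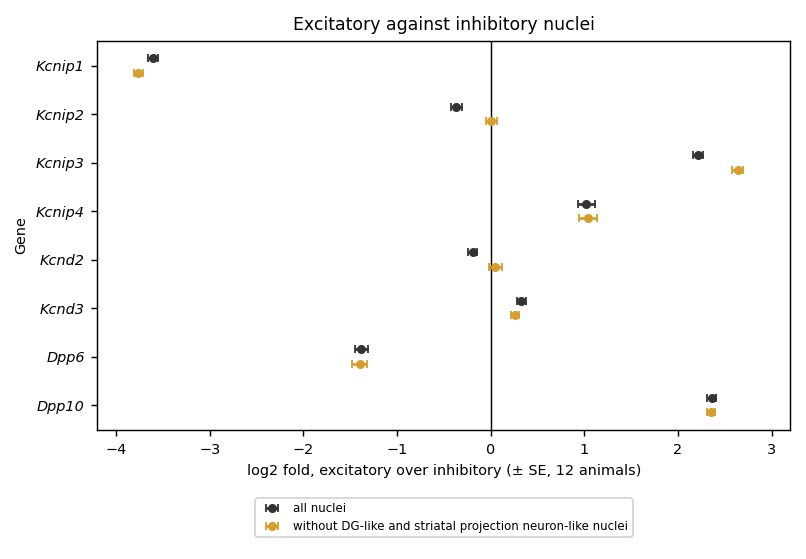
The horizontal axis gives the log2 difference between excitatory and inhibitory nuclei for each of the 8 genes on the vertical axis, as fitted over 12 animals, with bars of ± SE. Black points use all nuclei and yellow points leave out DG-like and striatal projection neuron-like nuclei: Kcnip1 and Dpp6 stay left of 0, Kcnip3, Kcnip4, Kcnd3 and Dpp10 right of it, and Kcnip2 and Kcnd2 move to near 0.

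Within the broad classes, each subclass was compared with the mean of the other subclasses of its kind, and a call needed an absolute log2 difference over 1. Of the 104 combinations of a member and a subclass 28 were called, 11 higher and 17 lower, and 8.95% of all combinations of a gene and a subclass were called in the same fits (4.48% in each direction). By subclass this background was 6.23% in L2/3 IT-like, 2.57% in L4/5 IT-like, 5.25% in L5 NP-like, 4.73% in Car3-like, 9.98% in L6 CT-like, 2.85% in L6b-like and 10.5% in DG-like nuclei, 6.01% over the excitatory subclasses together. It was 16.4% in Pvalb-like, 9.95% in Sst-like, 12.2% in Vip-like, 13.5% in Lamp5-like, 8.69% in Sncg-like and 24.8% in striatal projection neuron-like nuclei, 14.3% over the inhibitory subclasses together. All 8 members had at least 2 calls. With all 13 subclasses in the fits Kcnip2 had the most, with 7 of 13, followed by Kcnip1 with 6 and Kcnip3 with 4. Without the DG-like and striatal projection neuron-like nuclei 14 of 83 combinations were called, beside 6.98% of all combinations. Calls in the left-out subclasses could not be made there, and those of Kcnip2 in Sst-like (-0.62) and Lamp5-like nuclei (-0.76) were among the calls lost. In each member's order over the 13 neuronal subclasses, 28 of the 96 pairs of neighbouring subclasses differed beyond the spread between animals (exact two-sided permutation test by sign flips over animals, Benjamini-Hochberg adjusted over the 96 pairs, smallest possible unadjusted p = 0.000488), so that most neighbouring levels are not ordered with any certainty.

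**Figure D2:**
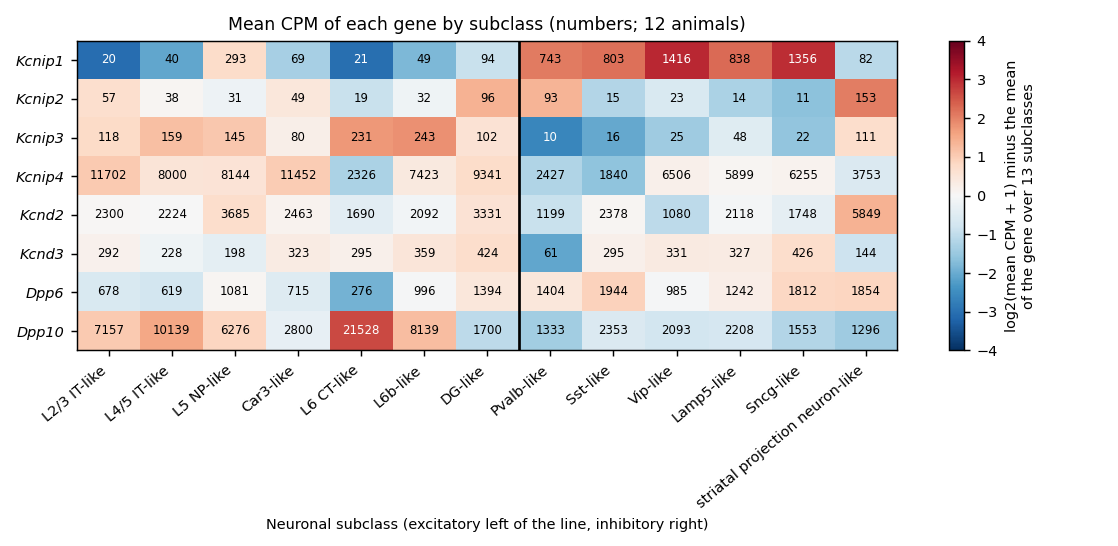
Each cell prints the mean CPM over 12 animals of a gene (rows) in a neuronal subclass (columns, excitatory left of the black line), and the colour is log2(mean CPM + 1) minus the gene's own mean over the 13 subclasses. Kcnip1 is red right of the line except in striatal projection neuron-like nuclei, and the L6 CT-like column pairs a dark red Dpp10 with blue Kcnip1, Kcnip4 and Dpp6.

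Kcnd2 was highest in striatal projection neuron-like nuclei, at 5849 ± 759 CPM (SD, n = 12), and next in L5 NP-like nuclei (layer 5 near-projecting), at 3685 ± 144 CPM. All 12 animals had the higher level in the former (adjusted p = 0.00361, the smallest these permutations gave). In striatal projection neuron-like nuclei it exceeded the other inhibitory subclasses by 1.96 on the log2 scale (SE 0.088, adjusted p = 1.85e-28). Its lowest levels were in Vip-like nuclei at 1080 ± 215 CPM and Pvalb-like nuclei at 1199 ± 197 CPM, which did not differ from each other in the neighbour test. Vip-like nuclei lay 1.01 below the other inhibitory subclasses in log2 (difference -1.01, SE 0.11, adjusted p = 3.43e-11), but -0.65 once the striatal projection neuron-like nuclei were left out, which is below the size for a call. It was also -0.98 under the stricter marker rule and just short of the call without any 1 of WT male 2, Het male 1, Het male 2 or Het male 3. Between its ends Kcnd2 varied 5.42-fold over the 13 subclasses, the narrowest range of the members.

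Kcnd3 was lowest in Pvalb-like nuclei. Pvalb-like nuclei held 60.7 ± 16.8 CPM, the lowest of the 13 subclasses, with a lowest, median and highest animal of 27.5, 64.7 and 92.4 CPM, and lay 2.25 below the other inhibitory subclasses on the log2 scale (difference -2.25, SE 0.11, adjusted p = 5.80e-35). The next level upwards was that of striatal projection neuron-like nuclei, where Kcnd2 had its highest level, at 144 ± 31.2 CPM (difference -0.66, SE 0.096), and it was higher in 12 of 12 animals (adjusted p = 0.00361, exact permutation test). The top of the order, Sncg-like at 426 ± 148 CPM and DG-like at 424 ± 69.0 CPM, was not resolved. Sncg-like nuclei passed the call against the other inhibitory subclasses with a log2 difference of 1.15 (SE 0.11, adjusted p = 3.38e-16), and were at 0.92 without a filter on low counts, no longer a call.

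Kcnip1 separated the interneuron subclasses from striatal projection neuron-like nuclei and also marked 1 excitatory subclass. Vip-like nuclei held 1416 ± 146 CPM and Sncg-like nuclei 1356 ± 467 CPM, neither resolved from the other. Both passed the call against the other inhibitory subclasses, by 1.41 (SE 0.065, adjusted p = 2.25e-36) and 1.20 (SE 0.075, adjusted p = 1.45e-26), but fell to 0.74 and 0.55 when the striatal projection neuron-like nuclei, at 82.0 ± 25.9 CPM, were left out of the mean, and the Sncg-like difference was 0.98 without a filter on low counts. Among excitatory nuclei L5 NP-like nuclei stood out at 215, 260 and 376 CPM (lowest, median, highest of 12 animals), with a mean of 293 ± 59.9 CPM, a log2 difference of 2.81 from the other excitatory subclasses (SE 0.089, adjusted p = 2.74e-42) that grew to 3.04 without DG-like nuclei. The next excitatory subclass, DG-like, held 94.5 ± 56.8 CPM and was lower in 12 of 12 animals. L2/3 IT-like nuclei (upper-layer intratelencephalic) at 20.01 ± 6.48 CPM and L6 CT-like nuclei (layer 6 corticothalamic) at 20.8 ± 4.90 CPM were the lowest, with calls at -1.63 (SE 0.16, adjusted p = 5.81e-15) and -1.59 (SE 0.13, adjusted p = 4.90e-18). From the top to the bottom of its order Kcnip1 varied 70.8-fold, the widest range among the members.

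Kcnip2, the KChIP best known from heart and striatum, had its highest levels in 3 subclasses. Striatal projection neuron-like nuclei held 153 ± 31.4 CPM (87.1 CPM at the lowest, 164 at the median and 191 at the highest), DG-like nuclei 96.0 ± 18.7 CPM and Pvalb-like nuclei 92.8 ± 18.2 CPM. The log2 differences from their own broad class were 2.99 (SE 0.15, adjusted p = 1.31e-35), 1.36 (SE 0.13, adjusted p = 1.58e-16) and 1.95 (SE 0.16, adjusted p = 1.25e-19). With nuclei above the upper limits included, the DG-like difference was just under 1 and no longer a call. Pvalb-like nuclei differed still more, by 2.66, without the striatal projection neuron-like nuclei. Sncg-like (10.7 ± 17.1 CPM), Lamp5-like (14.4 ± 17.01 CPM) and Sst-like nuclei (15.5 ± 9.59 CPM) formed the bottom, with no resolved order among them. At those levels few UMIs were counted, and the median animal had a count of 0 in Sncg-like nuclei.

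Kcnip3 was spread over the excitatory subclasses with its highest levels in the layer 6 subclasses L6b-like and L6 CT-like. L6b-like nuclei held 243 ± 59.4 CPM and L6 CT-like nuclei 231 ± 51.6 CPM, not resolved from each other, and L6 CT-like nuclei exceeded the next subclass, L4/5 IT-like at 159 ± 46.0 CPM, in 12 of 12 animals (log2 difference 0.56, adjusted p = 0.00361, exact permutation test). Against all other excitatory subclasses the differences of 0.89 (SE 0.086) in L6b-like and 0.83 (SE 0.060) in L6 CT-like nuclei were below the size for a call, though both had small adjusted p-values (1.59e-15 and 4.37e-24). Car3-like nuclei, the subclass named for carbonic anhydrase 3, were low at 80.4 ± 28.8 CPM (difference -1.09, SE 0.14, adjusted p = 2.13e-10), and at -0.97 with nuclei above the upper limits included, which ended the call. Among inhibitory nuclei only the striatal projection neuron-like subclass reached such levels, at 111 ± 34.1 CPM (difference 2.38, SE 0.16, adjusted p = 6.86e-26), while Pvalb-like nuclei held 10.4 ± 9.47 CPM and Sst-like nuclei 15.9 ± 9.94 CPM.

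Kcnip4 was lowest in L6 CT-like, Sst-like and Pvalb-like nuclei. L2/3 IT-like nuclei held 11702 ± 705 CPM and Car3-like nuclei 11452 ± 2506 CPM, which were not resolved from each other. L6 CT-like nuclei held 1722, 2243 and 2778 CPM (lowest, median, highest), so that the highest L6 CT-like value was less than the lowest value of any other excitatory subclass. The log2 difference was -1.97 (SE 0.067, adjusted p = 7.86e-40), and it was -1.95 without DG-like nuclei. Sst-like nuclei held 1840 ± 656 CPM and Pvalb-like nuclei 2427 ± 572 CPM. Sst-like nuclei passed the call (difference -1.41, SE 0.14, adjusted p = 1.93e-13), and Pvalb-like nuclei had a difference of -0.92 (SE 0.13).

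Dpp10 was highest in L6 CT-like nuclei, the excitatory subclass with the lowest Kcnip4 level. L6 CT-like nuclei held 18625, 21821 and 23978 CPM (lowest, median, highest of 12 animals), and no other subclass had an animal above the lowest of these. The second level, in L4/5 IT-like nuclei, was 10139 ± 1400 CPM, a log2 difference of 1.10 with the same direction in 12 of 12 animals (adjusted p = 0.00361, exact permutation test). Against the mean of the other excitatory subclasses L6 CT-like nuclei were higher by 2.11 (SE 0.087, adjusted p = 3.36e-33). In L6b-like nuclei the differences were 0.42 (SE 0.10) for Dpp10 and -0.06 (SE 0.058) for Kcnip4. The excitatory subclasses at the other end were DG-like at 1700 ± 827 CPM (difference -2.27, SE 0.13, adjusted p = 5.76e-25) and Car3-like at 2800 ± 839 CPM (difference -1.39, SE 0.12, adjusted p = 9.17e-16). All inhibitory subclasses lay between 1296 ± 582 CPM in striatal projection neuron-like nuclei and 2353 ± 498 CPM in Sst-like nuclei, and none was called.

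Dpp6 was lowest where Dpp10 was highest. L6 CT-like nuclei held 218, 282 and 320 CPM, below every animal of every other subclass, and the difference from the other excitatory subclasses was -1.65 (SE 0.064, adjusted p = 3.49e-40). The nearest subclass, L4/5 IT-like at 619 ± 90.9 CPM, was higher in 12 of 12 animals (adjusted p = 0.00361, exact permutation test). Sst-like nuclei at 1944 ± 170 CPM, striatal projection neuron-like nuclei at 1854 ± 242 CPM and Sncg-like nuclei at 1812 ± 468 CPM were the top, with no resolved order. DG-like nuclei, at 1394 ± 198 CPM, were called among the excitatory subclasses with a difference of 1.02 (SE 0.060, adjusted p = 2.57e-27), close to the threshold of 1. The call ended at 0.62 with nuclei above the upper limits, 0.90 without a filter on low counts and 0.99 both without doublet removal and without WT male 3.

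L6 CT-like nuclei thus had calls for 5 of 8 members, higher for Dpp10 and lower for Kcnip1, Kcnip2 (18.8 ± 3.56 CPM, difference -1.24, SE 0.10, adjusted p = 1.55e-20), Kcnip4 and Dpp6, and all 5 were also called without DG-like nuclei. With nuclei above the upper limits included, Kcnip1 (-0.64) and Kcnip2 (-0.88) were no longer called there. Of all genes, 9.98% were called in this subclass, 2.95% higher and 7.03% lower. L4/5 IT-like and L6b-like nuclei had no member called, beside 2.57% and 2.85% of all genes. With nuclei above the upper limits included, Dpp10 in L4/5 IT-like nuclei (1.13) and Kcnip3 in L6b-like nuclei (1.05) passed the size for a call. Dpp10 in L4/5 IT-like nuclei also did so under the stricter marker rule (1.04).

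**Figure D3:**
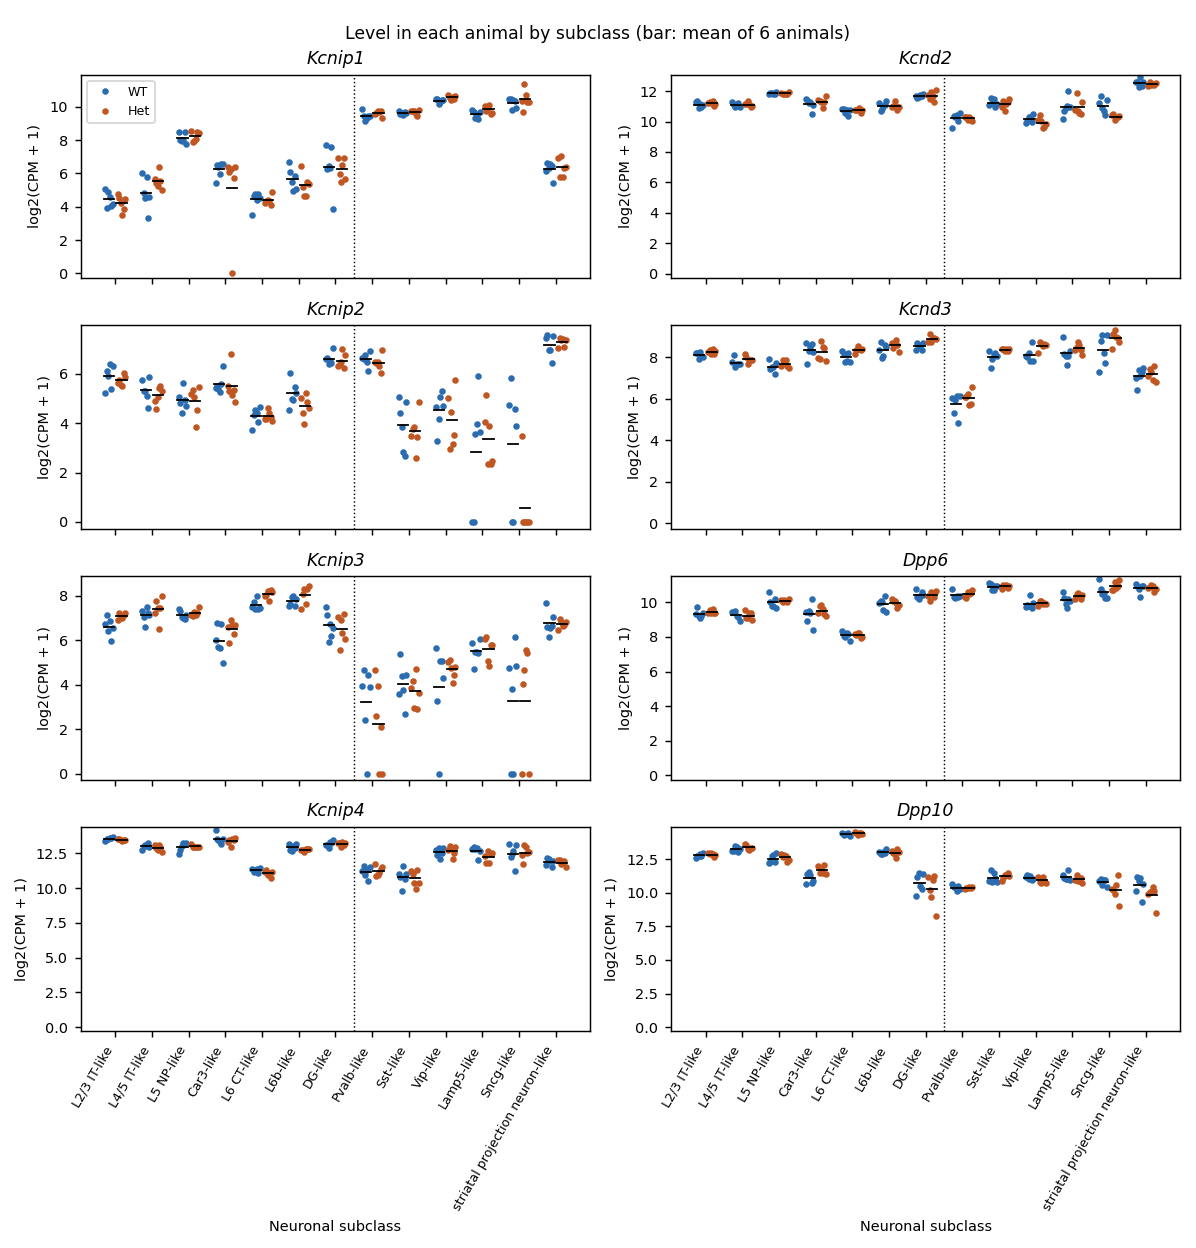
Each point is 1 animal, with log2(CPM + 1) on the vertical axis and the 13 neuronal subclasses on the horizontal axis, in 1 panel per gene (WT blue, Het orange, black bars the mean of 6 animals, dotted line between excitatory and inhibitory subclasses). All animals of L6 CT-like nuclei lie above those of the other subclasses for Dpp10 and below them for Dpp6, and points at 0 in Kcnip2 and Kcnip3 are animals with no count.

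As a description, the patterns of the members over the 13 neuronal subclasses and 5 non-neuronal classes were set against those of the 9956 genes with at least 20 CPM in at least 1 class, by Pearson's r of log2(mean CPM + 1) over these 18 classes. All classes come from the same 12 libraries. For Kcnip4 the 3 most alike genes were Gm42772 (r = 0.9905), C030015E24Rik (0.988) and 2900064K03Rik (0.981), and for Kcnd2 the first was Gm42583 (0.981). These 4 are annotated on the same strand within Kcnip4 or Kcnd2, so that their reads and those of the member cannot be told apart here. In all, 31 annotated genes overlap Kcnip4 (24 on its strand), 10 overlap Dpp10, 7 Dpp6, 4 Kcnip1, 3 Kcnd2, 2 Kcnd3, 1 Kcnip3 and none Kcnip2. The remaining leaders were Shisa7 (0.905) and Scn3a (0.903), a sodium channel, for Kcnd2. Ralgps2 (0.941) and Minar2 (0.919) were among the leaders for Kcnd3. Dgki (0.870), the calcium release channel gene Ryr1 (0.869) and Dgkh (0.826) were most like Kcnip2, and Lzts1 (0.907), Gm10115 (0.907) and Arpp21 (0.881) most like Kcnip3. Kcnip1 had Gm47342 (0.907), Gm47341 (0.904) and Gm47026 (0.901), 3 unspliced models on chromosome 10. Dpp6 had Trp53bp1 (0.917), the ephrin receptor gene Epha6 (0.906) and Tmem131l (0.899), and Dpp10 had the splicing regulator gene Khdrbs3 (0.940), R3hdm2 (0.893) and Ccl27a (0.889). Among the members themselves r was highest for Kcnip4 with Kcnd3 (0.78), Kcnip3 with Dpp10 (0.76) and Kcnd2 with Kcnd3 (0.73), and lowest for Kcnip1 with Kcnip3 (-0.41). These r values include oligodendrocyte-like nuclei, where Kcnd2 stood at 8.37% and Kcnd3 at 4.15% of the median neuronal level. They are no measure of likeness among neurons alone. Striatal projection neuron-like nuclei had the highest Kcnd2 level (5849 CPM) and, at 144 CPM, a Kcnd3 level above only that of Pvalb-like nuclei.

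Levels in non-neuronal classes were read with caution, since 6 transcripts that mark neurons (Snap25, Syt1, Rbfox3, Celf4, Snhg11 and Meg3) were present there too. Their median level was 44.8% of that of the median neuronal subclass in astrocyte-like nuclei, 22.9% in oligodendrocyte precursor-like, 68.7% in microglia-like, 41.7% in vascular and leptomeningeal-like and 3.02% in oligodendrocyte-like nuclei. Oligodendrocyte-like nuclei, the 1 class with little neuronal RNA, had every member low, from 2.89% (Kcnip4) to 22.9% (Kcnip2) of the median neuronal level. Kcnd2 in oligodendrocyte precursor-like nuclei was 3536, 4158 and 4842 CPM (lowest, median, highest), above every animal's level in all excitatory nuclei and 189% of that of the median neuronal subclass, while the neuronal transcripts stood at 20.5% to 35.5%. Kcnip1 there was 340 ± 94.3 CPM. These nuclei held a median of 8 UMIs of their own marker list and 7 of the astrocyte list. In astrocyte-like and microglia-like nuclei Kcnip1 stood at 272% and 266% of the median neuronal subclass and Kcnd2 at 147% and 119%. For Kcnip1 that median subclass held 94.5 CPM, while Pvalb-like nuclei, the lowest interneuron subclass, held 743 CPM. In the same 2 classes Kcnip3 stood at 165% and 120%, Dpp10 at 161% and 213% and Kcnip2 at 95.9% and 138%. Kcnd3 stood at 91.5% and 86.0%, Dpp6 at 68.2% and 104% and Kcnip4 at 60.3% and 65.9%. The part of RNA from other cells in any of these values was not tested.

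The other genes of Kv4-type currents and of the calcium sensor family were taken as 5 lists, and the counts below are over all 11764 genes' fit with its background of 50.9%. Among other A-type pore-forming subunits 1 of 4 differed between excitatory and inhibitory nuclei, Kcnc4, higher by 2.03 (SE 0.14, adjusted p = 4.53e-13), and the remaining Kv4 gene, Kcnd1, was near the limit of counting at 3.67 ± 0.986 CPM and 4.98 ± 2.20 CPM. The Kv beta subunits were called in 3 of 3 tested, with Kcnab1 (-1.47) and Kcnab3 (-1.44) higher in inhibitory nuclei and Kcnab2 (0.54) in excitatory nuclei, and 4 KCNE genes were not expressed highly enough to be tested. Of 7 delayed rectifier and low-threshold subunits 4 were called, among them Kcnc1 (-1.89) and Kcnc2 (-3.73), the channels of fast spiking, and Kcna2 (-0.47), each higher in inhibitory nuclei. Of 6 other neuronal calcium sensors 5 were called, with Hpcal4 (1.00), Vsnl1 (0.38) and Ncald (0.32) higher in excitatory and Ncs1 (-0.25) in inhibitory nuclei. Genes reported as targets of DREAM, the protein of Kcnip3, were called in 2 of 3, Hrk higher (1.02) and Slc8a3 lower (-0.60) in excitatory nuclei, so the list held both directions.

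The question of the study was what loss of 1 functional Myt1l allele does to cortical nuclei. Myt1l itself was detected in both genotypes, at 900, 974 and 1079 CPM (lowest, median, highest) in WT and 1032, 1099 and 1198 CPM in Het excitatory nuclei (log2 difference 0.15, adjusted p = 0.399 by edgeR). In L6 CT-like nuclei it stood at 1140, 1225 and 1318 CPM in WT and 1344, 1468 and 1621 CPM in Het, with all 6 Het animals above all WT animals (log2 difference 0.23, SE 0.061, adjusted p = 0.0778 by edgeR), and DESeq2 called it there (adjusted p = 0.0109). The share of all genes without overlap in this subclass was not counted. The counts are not separated by allele here, so they do not check the labels. Het against WT, 137 combinations of a member and a class could be tested and 1 was past an adjusted p of 0.05 and an absolute log2 difference of 0.2, beside 0.142% of all combinations of a gene and a class (0.112% higher and 0.03% lower in Het). In single classes 0.146% of genes were called over all excitatory nuclei, 0.345% over all inhibitory nuclei, 0.0791% in L2/3 IT-like, 0.0554% in L4/5 IT-like, 0.0359% in L5 NP-like and 0.0902% in Vip-like nuclei. That 1 combination belongs to the members chosen with this contrast known, and nothing is read from the count.

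Kcnip3 had the higher median in Het in L6 CT-like nuclei. WT animals had 168, 177 and 254 CPM (lowest, median, highest) and Het animals 214, 274 and 307 CPM, with a log2 difference of 0.47 (SE 0.094), and 0.657% of all genes were called in that subclass (0.409% higher and 0.248% lower). The groups overlapped, with 4 of 6 Het animals above the highest WT animal and 6 of 6 above the WT median. When any 1 animal was omitted the difference ran from 0.43 to 0.56. Over all excitatory nuclei the values were 132, 148 and 184 CPM in WT and 177, 196 and 213 CPM in Het (log2 difference 0.34, SE 0.073), with 5 of 6 Het animals above all WT animals, and without the DG-like nuclei it was 0.35 (SE 0.072). Its difference was 0.47 (SE 0.13) in L2/3 IT-like nuclei, 0.07 (SE 0.11) in L5 NP-like nuclei and -0.13 (SE 0.21) in striatal projection neuron-like nuclei. All classes come from the same 12 animals. L6 CT-like nuclei, the subclass with the second highest Kcnip3 level, made up 14.2% to 21.9% of excitatory nuclei in WT (median 18.8%) and 18.5% to 23.9% in Het (median 20.7%), and the part of that share in the value over all excitatory nuclei was not tested.

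Kcnip4 had the lower median in Het over all excitatory nuclei and in L6 CT-like and Lamp5-like nuclei. Over all excitatory nuclei WT animals had 6274, 7861 and 8817 CPM and Het animals 6491, 7029 and 7657 CPM, a log2 difference of -0.14 (SE 0.075) with all 6 Het animals below the WT median. In L6 CT-like nuclei the values were 2135, 2565 and 2778 CPM against 1722, 2222 and 2560 CPM (log2 difference -0.25, SE 0.087). The most negative value in neurons was in Lamp5-like nuclei (-0.46, SE 0.17), where WT animals had 4131, 7226 and 7913 CPM and Het animals 3503, 5364 and 6603 CPM. The groups overlapped in each of these. With nuclei above the upper limits included, the differences were -0.26 in L6 CT-like and -0.59 in Lamp5-like nuclei. In other subclasses Kcnip4 differed less or the other way. Its difference was -0.03 (SE 0.12) in L5 NP-like, -0.04 (SE 0.093) in DG-like and -0.01 (SE 0.30) in Sncg-like nuclei. It was 0.02 (SE 0.21) in Pvalb-like and 0.07 (SE 0.16) in Vip-like nuclei.

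Kcnd3 had the higher median in Het over all excitatory nuclei and in L6 CT-like and DG-like nuclei. In Car3-like nuclei its difference was -0.07 (SE 0.19). In L6 CT-like nuclei WT animals had 214, 253 and 320 CPM and Het animals 284, 332 and 374 CPM (log2 difference 0.33, SE 0.089), with 5 of 6 Het animals above the highest WT animal. When any 1 animal was omitted the difference ran from 0.28 to 0.40. Over all excitatory nuclei the difference was 0.14 (SE 0.055), from 248, 282 and 324 CPM to 302, 315 and 330 CPM, and over all inhibitory nuclei 0.18 (SE 0.088). In DG-like nuclei the values were 321, 379 and 417 CPM in WT and 420, 476 and 563 CPM in Het (log2 difference 0.31, SE 0.13). The highest WT and the lowest Het animal lay close together, and the share of all genes without overlap was not counted. No gene was called in DG-like nuclei (0% of 2343).

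Kcnip1 was compared mainly in inhibitory nuclei, where its level was highest. In Vip-like nuclei, its highest class, WT animals had 1142, 1336 and 1439 CPM and Het animals 1356, 1504 and 1655 CPM (log2 difference 0.18, SE 0.11), and over all inhibitory nuclei the difference was -0.01 (SE 0.078). The share of striatal projection neuron-like nuclei, which are low in Kcnip1, was 6.75% to 11.8% of inhibitory nuclei in WT and 11.8% to 18.2% in Het. Without those nuclei the difference over all inhibitory nuclei was 0.08 (SE 0.082).

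**Figure D4:**
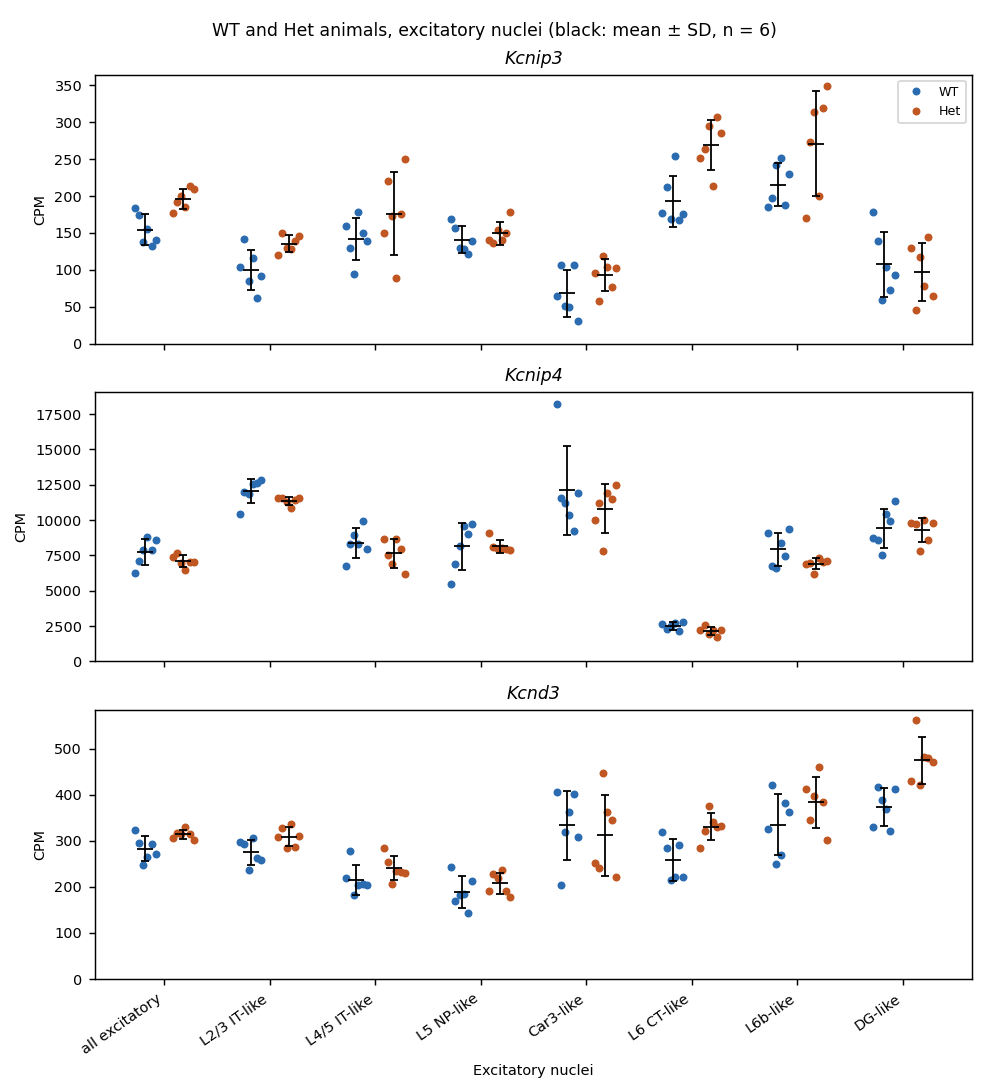
Each point is 1 animal's CPM (vertical axis, from 0) for Kcnip3, Kcnip4 and Kcnd3 in all excitatory nuclei and in each excitatory subclass (horizontal axis), WT blue and Het orange, with the mean ± SD of 6 animals in black. In L6 CT-like nuclei the Het animals lie mostly above WT for Kcnip3 and Kcnd3 and mostly below for Kcnip4, with overlap in all 3.

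The 4 members that were not chosen on this contrast, Kcnip2, Kcnd2, Dpp6 and Dpp10, gave 69 tested combinations. Of these edgeR called 0, beside 0.142% of all combinations, and DESeq2 called 0. An unadjusted p under 0.05 was reached by 4. Among all genes, 1032 of 13686 over all excitatory nuclei, 121 of 1937 in Car3-like and 72 of 950 in Sncg-like nuclei reached it by edgeR. The smallest adjusted p was that of Kcnd2 in Sncg-like nuclei (0.141, log2 difference -0.78, SE 0.18), with 1385, 2111 and 3254 CPM in WT and 1072, 1305 and 1428 CPM in Het, where 5 of 6 Het animals lay below all WT animals. These were 10 to 35 nuclei per animal. Without WT male 2 the difference was -0.88 and passed the call. Dpp10 in Car3-like nuclei stood at 1623, 2234 and 3009 CPM in WT and 2734, 3114 and 4311 CPM in Het (log2 difference 0.58, SE 0.16, adjusted p = 0.474 by edgeR). In oligodendrocyte precursor-like nuclei Dpp10 went the other way (log2 difference -0.88, SE 0.29, adjusted p = 0.497 by edgeR). In all excitatory nuclei the differences were 0.01 (SE 0.061) for Kcnd2, -0.05 (SE 0.086) for Kcnip2, -0.00 (SE 0.063) for Dpp6 and 0.11 (SE 0.046) for Dpp10, and a p that misses the threshold does not show that the genotypes had the same level.

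**Figure D5:**
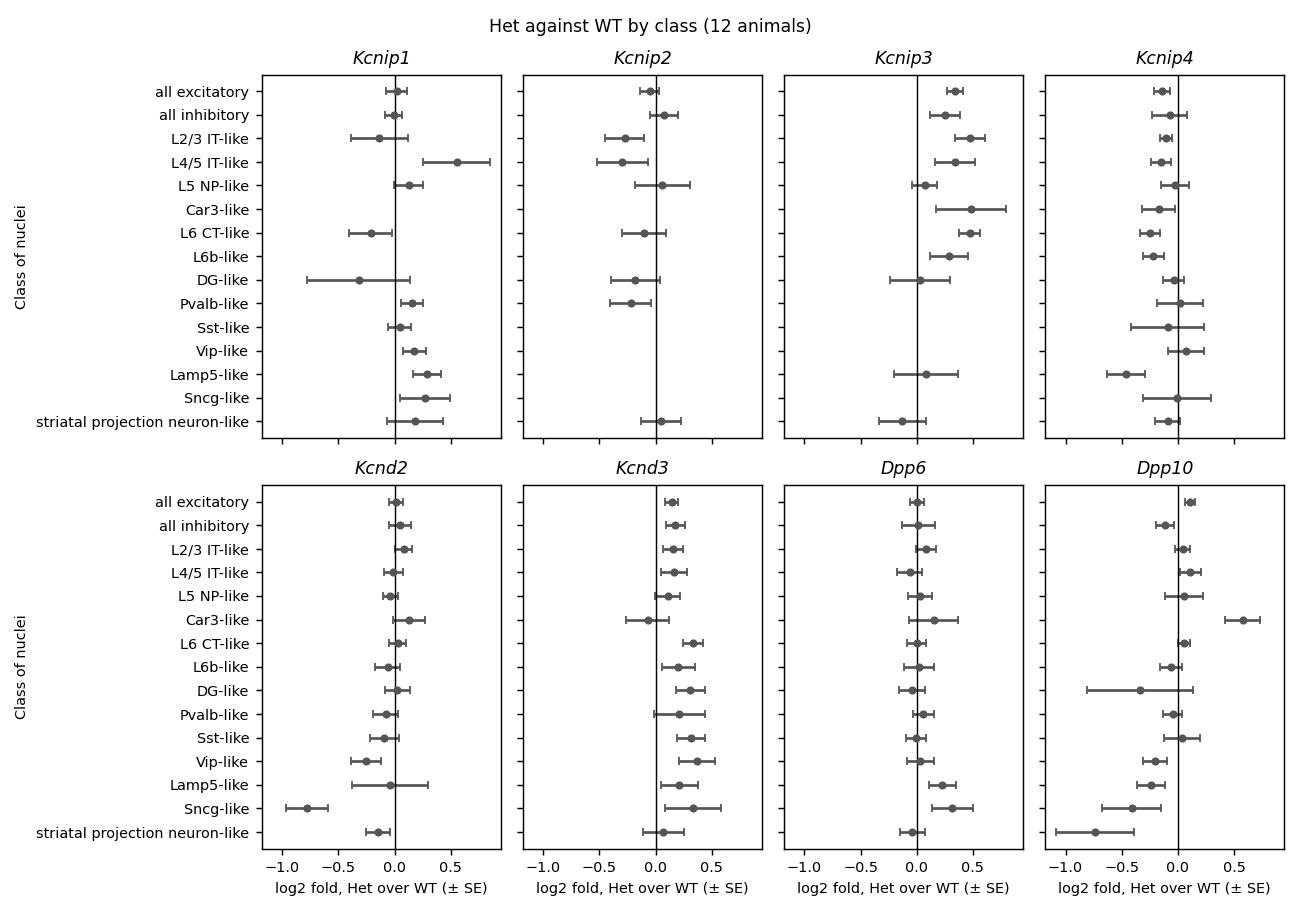
The horizontal axis gives the log2 difference of Het from WT with ± SE, and the vertical axis the 2 broad neuronal classes and 13 subclasses, in 1 panel per gene; classes with too few counts have no point. In L6 CT-like nuclei the points of Kcnip3 (0.47) and Kcnd3 (0.33) lie right of 0 and that of Kcnip4 (-0.25) left of it.

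For the interaction of genotype and sex edgeR called 0 of 133 combinations, beside 0.0129% of all combinations (0.00585% higher and 0.00702% lower), and 7 had an unadjusted p under 0.05. Such a p was reached by 835 of 13686 genes over all excitatory nuclei and 375 of 11009 over all inhibitory nuclei. Without a filter on low counts 1 member combination was called, Kcnip4 in all excitatory nuclei. For Kcnip4 in these nuclei, WT males had 7855 to 8817 CPM and Het males 6491 to 7061 CPM, while WT females had 6274 to 7867 CPM and Het females 6961 to 7657 CPM. The male groups did not overlap and the female groups did. The genotype effect in males minus that in females was -0.39 (SE 0.12, adjusted p = 0.676 by edgeR). In L5 NP-like nuclei the same difference was -0.55 (SE 0.16, adjusted p = 0.430 by edgeR), the smallest adjusted p of the members.

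In the other lists, 2 of 219 tested combinations of a gene and a class were called Het against WT, both neuronal calcium sensors and both higher in Het, beside 0.142% of all combinations. These lists were also chosen with earlier results of these data known, so their calls are a description and no independent support. Hpcal4, which encodes a visinin-like protein, stood in L4/5 IT-like nuclei at 8.85, 13.2 and 20.3 CPM in WT and 24.0, 36.8 and 45.0 CPM in Het with no overlap (log2 difference 1.29, SE 0.26, adjusted p = 0.0363 by edgeR), and DESeq2 did not call it (adjusted p = 0.125). The share of all genes without overlap there was not counted. Hpca, the gene of hippocalcin, stood over all inhibitory nuclei at 13.4, 16.7 and 23.4 CPM in WT and 22.5, 32.4 and 38.5 CPM in Het (log2 difference 0.89, SE 0.15, adjusted p = 0.00374 by edgeR). Without the striatal projection neuron-like nuclei, whose share was the higher in Het as given above, the Hpca difference was 0.27 (SE 0.19, adjusted p = 1.00 by edgeR) and no longer a call. DESeq2 called 1 of the 219, Hpca over all inhibitory nuclei. Of the 19 combinations of other A-type subunits, 33 of Kv beta and KCNE subunits, 86 of other Kv subunits and 23 of DREAM targets 0 were called by edgeR or DESeq2, while 4, 3, 12 and 3 reached an unadjusted p under 0.05. Among all genes, 1032 of 13686 over all excitatory nuclei and 689 of 11009 over all inhibitory nuclei did so by edgeR.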

How the data were processed

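The authors deposited 1 matrix per animal with estimated counts of UMIs per gene and nucleus from the ScaleRna pipeline (mm10), of which 92.5% to 92.9% of the nonzero values were whole. The files hold fewer barcodes than the nuclei the study counts, and the sources used here do not say how multiply mapped or intronic reads were counted. Seurat 4.3.0 and DESeq2 1.38.3 are named in the submitters' processing notes. The study's limits were applied to barcodes: a UMI total from 800 to 6000, a gene number from 300 to 3000, a mitochondrial share of no more than 1% and log genes divided by log UMIs no lower than 0.9. The highest 5% of doublet scores per animal (scrublet in scanpy 1.11.5) were removed. Classes came from a naive Bayes assignment on marker UMIs (posterior of at least 0.95, subclasses 0.9). L5 ET-like nuclei were left out because few markers were detected in them. Counts were summed per class and animal (at least 10 nuclei), rounded and tested with edgeR 4.0.16 in R 4.3.3, by robust quasi-likelihood fits after TMM scaling and filterByExpr, with Benjamini-Hochberg adjustment. The fits were tested on simulated data. SE is the absolute log2 difference divided by the square root of the F statistic of the same test, an approximation. CPM values carry no pseudocount, except 1 in log2(CPM + 1). Total UMIs kept per animal ranged from 5.05e+06 to 1.40e+07. The lowest subclass total in 1 animal was 36100 UMIs. The 12 animals are the replicates, and litters are not in the labels. The members and all lists were chosen with earlier results of these data known. Named genes were the members, Myt1l, for each list the called genes (at most 4, or the one with the smallest adjusted p) and the 3 genes most like each member. Some genes that this rule names are not reported here. Alternatives were DESeq2 1.42.0, other size factors, no count filter, a replicate block, sex as a covariate, other limits on nuclei, a stricter marker rule and leaving out each animal. Leaving out DG-like and striatal projection neuron-like nuclei, and ordering levels over 18 classes, were chosen after seeing the data.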

Additional observations from a re-analysis of the deposited data

Results flagged for a closer look

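Among 216 groups of 6 animals of 1 genotype (a member in a class), 19 (8.80%) had 1 animal whose gap to the nearest animal passed Dixon's 95% limit, where chance gives about 1 in 20. Of these, 4 were from WT female 1 and 4 from WT male 2.

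In WT female 1, Kcnip1 was 10.4 CPM in L6 CT-like nuclei (the lowest) and 940 CPM in Pvalb-like nuclei (the highest), Kcnip4 was 18218 CPM in Car3-like nuclei and Dpp6 1788 CPM in Pvalb-like nuclei, both the highest. In WT male 2, Kcnip4 in Lamp5-like nuclei was the lowest at 4131 CPM, and Kcnd2 in Lamp5-like (4089 CPM), Kcnd3 in Vip-like (427 CPM) and Dpp6 in all inhibitory nuclei (2739 CPM) were the highest. In the other WT animals such values were the highest of their group: Dpp6 in Vip-like nuclei of WT male 1 (1354 CPM), Kcnip2 in DG-like nuclei (133 CPM) and Dpp10 in L6b-like nuclei (9858 CPM) of WT male 3, and Dpp10 in all excitatory nuclei of WT female 3 (10271 CPM).

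In Het animals, Kcnip1 was the highest in all excitatory nuclei of Het female 1 (74.8 CPM), in L4/5 IT-like nuclei of Het male 1 (81.1 CPM, from 19 UMIs) and in L6 CT-like nuclei of Het male 3 (28.0 CPM, from 31 UMIs). Kcnip4 was the highest in L5 NP-like nuclei of Het female 1 (9082 CPM) and the lowest in L6b-like nuclei of Het female 3 (6196 CPM). Kcnd2 in L5 NP-like nuclei of Het male 3 (3998 CPM) and Kcnd3 in all inhibitory nuclei of Het female 2 (304 CPM) were the highest.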

How the results depend on the processing

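Het against WT, 123 combinations of a gene and a class were called in all, against 224 with DESeq2, 471 without a filter on low counts, 228 with nuclei above the upper limits and 73 with a replicate block, and 48 to 170 when 1 animal was left out (48 without WT female 3, 50 without Het female 1, 65 without WT male 3, 76 without Het female 3 and 77 without Het female 2). The member combinations called changed from 1 to 3 with DESeq2, 3 without the filter, 4 with nuclei above the upper limits, 2 under the stricter marker rule, and 0 (without WT female replicate 3) to 3 (without WT female replicate 1) when 1 animal was left out. Since Kcnip1, Kcnip3, Kcnip4 and Kcnd3 were chosen on this contrast, nothing is read from these counts. With the replicate block 1 was called, and it changed no call of a member. Same-numbered animals did not deviate together (r from -0.12 to 0.08 over 6 pairs of the same sex), so the numbers were not read as pairs. Members called between excitatory and inhibitory nuclei numbered 7 to 8 when 1 animal was left out and 6 without DG-like and striatal projection neuron-like nuclei, where Kcnip2 turned from -0.37 to 0.0070. Member and subclass combinations called fell from 28 of 104 to 14 of 83 without those nuclei and were 26 to 28 with 1 animal left out. Part of this fall is no lost difference. Calls in the left-out subclasses could not be made, and Kcnip3 was not tested in the remaining inhibitory subclasses. The genotype by sex calls went from 0 to 1 without the filter (Kcnip4 in excitatory nuclei, -0.39). Neighbouring subclasses that differed rose from 28 to 44 with nuclei above the upper limits. Apart from the subclasses left out or not tested, the cause of these changes was not tested. Depth limits the low values: some animals had no count of Kcnip3 in Sncg-like and Pvalb-like nuclei or of Kcnip2 in Sncg-like and Lamp5-like nuclei.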
